A study of Mus musculus with 64 samples.

Results

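Trp53, which encodes the transcription factor p53, and 9 genes tied to it were followed through 64 mouse RNA-seq libraries: Mdm2, Ccng1, Aen, Cdkn1a, Bax, Bbc3, Trp53inp1, Sesn2 and Phlda3. All 10 were found by symbol among the 23338 genes counted in every library. They were chosen by their levels in single eight-cell embryos, where Ccng1 and Aen were higher in males and other genes moved with Ccng1. The male against female contrast in the embryos and the covariation with Ccng1 are therefore given below as descriptions with no test. The libraries came from mice of the C57BL/6 strain (C57BL/6 J in the study's methods) and covered 4 stages: eight-cell embryos (8 cell, 6 male and 6 female, flushed at 2.5 days post-coitum after natural matings), 2i ES cells (2 male and 2 female lines), fetal liver from late gestation (12 male and 12 female) and liver of adults aged 15 to 20 weeks (12 male and 12 female). No group carried an engineered allele. Each embryo library held all the cells of 1 embryo, the embryos came from 4 litters whose assignment to embryos is not given, and their sex had been read by the authors from the RNA itself. Each ES library was 1 line, derived from the inner cell mass of 1 embryo and kept in medium with inhibitors of the mitogen-activated protein kinase pathway and of glycogen synthase kinase together with LIF. ES lines are therefore few, and both inhibitors act on all of them.

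p53 is held at a low level in unstressed cells because MDM2, itself a product of a p53 target gene, marks it for degradation. When DNA is damaged or growth is disturbed, p53 accumulates and binds response elements near its target genes, whose products stop the cell cycle, start apoptosis or adjust metabolism. Because this control acts mainly on the protein, the level of the Trp53 transcript alone does not tell how active p53 is. Early embryos and ES cells are known for a rapid cell cycle, and the liver in late gestation is also a site of blood formation.

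The p53 response element is made of a pair of decamers, each with purines, a core of C, a pair of A or T bases and G, and then pyrimidines. RefSeq promoter windows of 300 bases, from upstream of a gene start to just after it in GRCm38.p6, were found for 9 of the 10 genes, all but Trp53inp1. A match with at most 1 mismatch in 20 bases and a spacer of at most 3 bases between the decamers, read on both strands because the element reads the same on either, was present in 3 of these 9. It was present in 0.451% of the 27025 genes with a window (122 genes). The matches are shown because p53 is known to recognise this element, and they include the gene that the description of the embryos turns on. Capitals mark the core of each decamer, and the sequences are written 5′ to 3′ on the strand of the gene. Each holds 1 mismatch, which lies in the core of the first decamer for Ccng1 and Bax and outside the cores for Cdkn1a.
Ccng1: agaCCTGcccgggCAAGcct
Cdkn1a: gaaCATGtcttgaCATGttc
Bax: aagCATAtcccaggCAAGctt
The Ccng1 match lay at chr11:40755462-40755481 on the minus strand, and its first base was 195 bases before the gene start in RefSeq. The Cdkn1a match lay at chr17:29090928-29090947 on the plus strand, 51 bases before the more upstream of 2 annotated starts. The Bax match lay at chr7:45467090-45467110 on the minus strand, 212 bases before the start, with a spacer of 1 base. A match describes the letters in a window and is not a measured site of binding. No window of Trp53, Mdm2, Aen, Bbc3, Sesn2 or Phlda3 held these letters, which says nothing of sites outside the windows.

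In GRCm38 the genes lie on 6 autosomes. The bounds given here are those of GENCODE M21, whose gene starts can differ from the RefSeq starts used for the windows. Trp53 lies on chromosome 11 from 69580359 to 69591873 and Ccng1 on the same chromosome from 40748552 to 40755311. Aen (78895854 to 78911209), Bax (45461697 to 45466898) and Bbc3 (16308393 to 16318205) lie on chromosome 7. Mdm2 lies on chromosome 10 from 117688875 to 117710758 and Cdkn1a on chromosome 17 from 29090976 to 29100727. Trp53inp1 (11156431 to 11174379) and Sesn2 (132492032 to 132510501) lie on chromosome 4, and Phlda3 on chromosome 1 from 135766119 to 135769136. A pseudogene of Trp53 is annotated on chromosome 17 (Trp53-ps) and is not among the genes counted, so reads from it could have been placed on Trp53.

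Levels are given as CPM, read counts scaled to a common total of reads on genes, scaled with TMM factors (edgeR's correction for library composition) over all 64 libraries. Reads on genes ranged from 9857929 to 10386931 in ES cells, from 4659656 to 7725432 in embryos, from 5145371 to 8499603 in fetal livers and from 1567583 to 4757610 in adult livers, and 3 reads correspond to 0.289 to 1.91 CPM before TMM scaling, for counting error only. The embryo libraries alone were made with an amplified single-cell protocol, so for every comparison with embryos stage and protocol cannot be told apart. As a check of the labels, 4 of 4 pluripotency markers had a median above 1 CPM in ES cells and embryos, and 4 of 4 hepatocyte markers did so in both livers. Erythroid markers summed to 1819 to 2908 CPM in fetal livers and to 17.9 to 248 CPM in adult livers. Of the 6 erythroid markers, 4 had a median above 1 CPM in fetal livers and 2 in adult livers. Hbb-b1 and Hba-a1 had no read in adult livers. Their levels in fetal livers are not given apart from the sum, so nothing is read from this absence. Neutrophil markers summed to 893 to 1779 CPM in fetal livers and to at most 8.6 CPM in adult livers, with no marker at 0 in all libraries of either. In whole livers, fewer cells of a type and less RNA per cell cannot be told apart.

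All 10 genes were higher in ES cells than in either liver. Trp53, the source of p53 itself, had 143.8, 102.7, 120.1 and 125.8 CPM in the ES lines, where the first 2 values are of male lines. In fetal livers it ranged from 21.8 to 33.9 CPM (median 27.3) and in adult livers from 4.06 to 16.02 CPM (median 9.31). The 3 groups did not overlap. Embryos, at 65.9 to 247 CPM (median 146), overlapped the ES lines and lay above every liver. The plot of levels by stage shows this order for Trp53 and the ES lines at the top for the other 9 genes by their means.

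**Figure D1:**
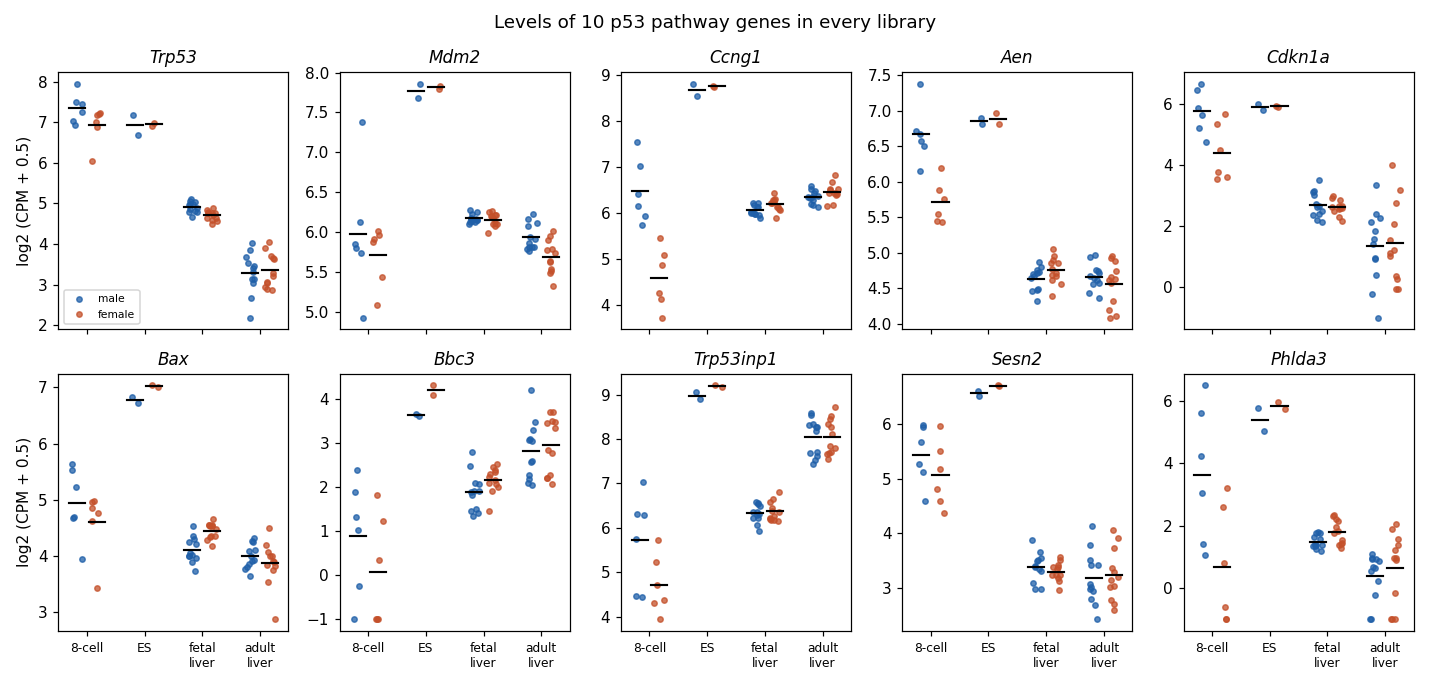
Level of each gene in every library, as log2 (CPM + 0.5) on the vertical axis, by stage on the horizontal axis, with males in blue, females in orange and a bar at the mean of each sex. The 4 ES lines lie above all livers for each gene except Bbc3, for which they overlap adult liver, and the embryos run from 12.7 to 187 CPM for Ccng1.

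Mdm2, the inhibitor of p53, had 204, 232, 222 and 228 CPM in the ES lines. It ranged from 62.9 to 77.1 CPM in fetal livers (median 71.2), from 39.4 to 74.5 CPM in adult livers (median 55.7) and from 29.9 to 166 CPM in embryos (median 57.7). The ES lines lay above every other library, and the other 3 stages overlapped. Mdm2 was the most even member among fetal livers, with a coefficient of variation of 0.0482.

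Ccng1, which encodes cyclin G1, a p53 target that takes part in a feedback on p53 through MDM2, had 452, 376, 428 and 437 CPM in the ES lines. It ranged from 58.9 to 85.6 CPM in fetal livers (median 69.7), from 69.2 to 114 CPM in adult livers (median 85.1) and from 12.7 to 187 CPM in embryos (median 48.0). Again the ES lines stood clear of the rest, while embryos covered and exceeded the whole range of the livers. Aen, an exonuclease induced by p53 in apoptosis, had 111.3, 118.3, 111.7 and 124.3 CPM in the ES lines, 42.5 to 166 CPM in embryos, 19.6 to 32.6 CPM in fetal livers and 16.5 to 30.8 CPM in adult livers. All embryos exceeded all livers for Aen.

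Cdkn1a, the cyclin-dependent kinase inhibitor p21 through which p53 stops the cell cycle, had 56.1, 63.9, 60.9 and 59.9 CPM in the ES lines. Embryos ranged from 11.1 to 102 CPM (median 38.5), fetal livers from 3.91 to 10.9 CPM (median 5.68) and adult livers from 0 to 15.5 CPM (median 1.984). Embryos lay above all fetal livers, whereas both livers overlapped. Adult livers rested on 0 to 32 reads of Cdkn1a each, and their coefficient of variation of 1.11 was the highest of the 10 genes at that stage. Phlda3, a p53 target that restrains AKT signalling at the membrane, had 32.4, 54.0, 53.1 and 61.4 CPM in the ES lines, 1.80 to 4.54 CPM in fetal livers and 0 to 3.68 CPM in adult livers. Of the adult livers, 5 had no read of Phlda3 and none had more than 8, so its level there is close to what the depth can show.

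Among the genes of apoptosis, Bax, a pore-forming protein of the mitochondrial outer membrane, had 105.0, 113.1, 130.7 and 127.6 CPM in the ES lines, 10.3 to 49.2 CPM in embryos, 12.8 to 24.7 CPM in fetal livers and 6.83 to 22.1 CPM in adult livers. Bbc3, which encodes PUMA, a BH3-only activator of BAX, had 11.8, 12.2, 19.4 and 16.7 CPM in the ES lines, 2.03 to 6.42 CPM in fetal livers and 3.63 to 17.9 CPM in adult livers. ES lines and adult livers overlapped for Bbc3, and 4 of 12 embryos had no read of it. For the other 8 embryos Bbc3 reached at most 4.77 CPM.

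Trp53inp1, a nuclear and autophagy protein that promotes p53 activity, had 480, 529, 590 and 578 CPM in the ES lines. Adult livers ranged from 172 to 418 CPM (median 282), fetal livers from 60.6 to 111.3 CPM (median 79.9) and embryos from 14.8 to 129.8 CPM (median 31.5). Its ES lines, adult livers and fetal livers did not overlap. Sesn2, a stress-induced inhibitor of mTORC1 signalling, had 91.9, 97.5, 104.3 and 104.7 CPM in the ES lines, 20.3 to 62.7 CPM in embryos, 7.29 to 14.2 CPM in fetal livers and 4.84 to 16.97 CPM in adult livers. The ES lines lay above the embryos, and the embryos above all livers, for Sesn2.

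Levels of different genes were compared per kilobase of merged exons (GENCODE M21). In ES cells Ccng1 was the most abundant at 120.4 ± 9.42 CPM per kb (SD, n = 4), followed by Trp53inp1 at 84.1 ± 7.78 and Bax at 75.6 ± 7.71. Bbc3 was the least abundant at 7.07 ± 1.71. In adult liver the leading gene was Trp53inp1 at 42.2 ± 11.4 CPM per kb (SD, n = 24), above Ccng1 at 24.1 ± 2.95. In embryos it was Trp53 at 36.2 ± 10.8 CPM per kb (SD, n = 12). Bax and Ccng1 followed there (18.4 ± 7.04 and 17.6 ± 14.8) and differed by less than 1 SD.

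Stages were compared in pairs with edgeR's quasi-likelihood F test, two-sided, with sex as a covariate. A gene was called when its Benjamini-Hochberg adjusted p over all genes tested was under 0.1 and its absolute log2 ratio above 0.5, the thresholds the study used. These thresholds call most genes between such different tissues, so counts are given beside the shares over all genes. Nothing in the labels ties the libraries of a group to separate litters, so the p-values measure the spread between these samples.

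Against fetal liver, 10 of 10 genes were called and all were higher in ES cells, where 76.4% of 14858 genes were called and 35.5% were called as higher. Their median log2 ratio was 2.67, beside -0.07 over all genes. Phlda3 had the largest ratio, a log2 of 4.25 (standard error 0.12, edgeR adjusted p = 7.27e-25), or 18.97-fold. Sesn2 followed with 3.41 (standard error 0.09, edgeR adjusted p = 3.26e-26) and Cdkn1a with 3.37 (standard error 0.13, edgeR adjusted p = 7.96e-22). Mdm2 had the smallest, 1.68 (standard error 0.04, edgeR adjusted p = 1.16e-27). The genes of cell cycle arrest and of apoptosis both rose, since Bax had a log2 of 2.69 and Bbc3 of 2.05.

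Against adult liver, 10 of 10 genes were again called and higher in ES cells, where 81.6% of 13102 genes were called and 41.4% were called as higher. The same ES lines serve in both comparisons, so the second is not separate evidence. The log2 ratios ran from 0.92 for Bbc3 (standard error 0.23, edgeR adjusted p = 0.000336) and 0.97 for Trp53inp1 (standard error 0.19, edgeR adjusted p = 2.67e-05) to 4.27 for Cdkn1a and 5.24 for Phlda3 (standard error 0.20, edgeR adjusted p = 2.50e-23). Trp53 differed by 3.61 (standard error 0.13, edgeR adjusted p = 8.58e-25), more than against fetal liver at 2.21. In both comparisons the 10 calls were made under every alternative that was run, including the fits without each ES line.

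Between the livers the genes parted. In adult against fetal liver 5 of 10 genes were called, 2 higher and 3 lower, where 67.2% of 13026 genes were called. Trp53inp1 was higher in adult liver by a log2 of 1.86 (standard error 0.09) and Bbc3 by 1.17 (standard error 0.15), with edgeR adjusted p-values of 5.48e-24 and 6.36e-10. Trp53 fell by 1.37 (standard error 0.08, edgeR adjusted p = 2.94e-22), Phlda3 fell by 0.97 (standard error 0.20, edgeR adjusted p = 1.57e-05) and Cdkn1a fell by 0.85 (standard error 0.25, edgeR adjusted p = 0.00171). Cdkn1a in females alone had -0.55 (edgeR adjusted p = 0.156). So the transcript of p53 itself and 2 of its targets were lower in adult liver while 2 other targets were higher. Ccng1 (0.39) and Mdm2 (-0.23) passed the p threshold and missed the fold threshold, as did Bax (-0.21). For Aen (0.04) and Sesn2 (0.02) the sign changed with the scaling, and neither passed the p threshold. The erythroid and neutrophil markers given above moved with this comparison, and their part in it was not tested. The plot of stage differences sets these 3 comparisons side by side.

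**Figure D2:**
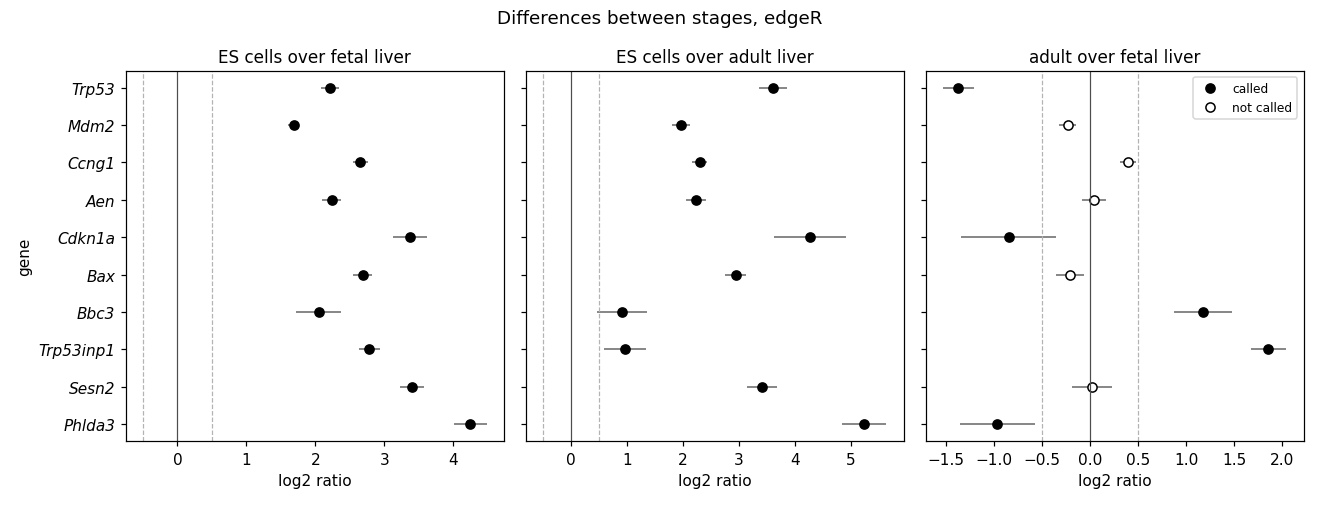
Log2 ratio between stages (horizontal axis) for each gene (vertical axis), with a point at the edgeR estimate, a bar for its 95% interval, filled points for called genes and dashed lines at the fold threshold of 0.5. All 10 points lie right of the threshold for ES cells over either liver, whereas adult over fetal liver runs from -1.37 for Trp53 to 1.86 for Trp53inp1.

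Embryos were compared with the other stages under the limit that their protocol differed. The scaling also matters there, because the median log2 ratio of all genes was -1.09 in embryos against fetal liver with TMM and -1.50 with the size factors of DESeq2. In embryos against fetal liver 8 of 10 genes were called, 6 higher and 2 lower, where 86.3% of 14036 genes were called. Cdkn1a had a log2 of 2.77 (standard error 0.21), Trp53 of 2.43 (standard error 0.09) and Sesn2 of 2.09 (standard error 0.13), with edgeR adjusted p of 1.58e-14, 6.11e-25 and 3.18e-17. Bbc3 fell by 1.35 (edgeR adjusted p = 0.00610) and Trp53inp1 fell by 0.85 (edgeR adjusted p = 0.000363). In males alone both calls were lost, at -0.72 for Bbc3 (edgeR adjusted p = 0.199) and -0.26 for Trp53inp1 (edgeR adjusted p = 0.397). Phlda3 had 2.14 (edgeR adjusted p = 0.00155), but 0.04 when each stage was given its own weight in limma (adjusted p = 0.960), and -0.16 in females alone. Bax had 0.65, but 0.23 with DESeq2 or its size factors and 0.34 in females alone, which ended its call.

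Ccng1 and Mdm2 were not called between embryos and fetal liver with edgeR and TMM, and both were called as lower in embryos under other scalings. Ccng1 had a log2 of -0.30 (standard error 0.23, edgeR adjusted p = 0.220) in the fit over both sexes. In males alone it was 0.64 (edgeR adjusted p = 0.00544) and in females alone -1.42 (edgeR adjusted p = 2.50e-06), so its direction depended on sex, as the choice of this gene implies. It was -0.71 with DESeq2 (adjusted p = 0.00141), -0.71 with its size factors in edgeR (adjusted p = 0.00525) and -0.58 with stage weights in limma (adjusted p = 0.0297). Mdm2 had -0.16 (standard error 0.13, edgeR adjusted p = 0.260), and -0.56 both with DESeq2 (adjusted p = 3.99e-05) and with its size factors in edgeR (adjusted p = 0.000254). In males alone Mdm2 had 0.08.

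In embryos against adult liver 9 of 10 genes were called, 6 higher and 3 lower, where 86.8% of 12446 genes were called and the median of all genes was -0.75 (-1.17 with the size factors). Trp53 was higher by a log2 of 3.84, Cdkn1a by 3.62, Phlda3 by 3.12 and Sesn2 by 2.098. Trp53inp1 fell by 2.67, Bbc3 fell by 2.48 and Ccng1 fell by 0.66 (edgeR adjusted p = 0.0101), although Ccng1 had 0.24 in males alone. Phlda3 had 1.16 with stage weights in limma (adjusted p = 0.217). Bax had 0.92, and 0.48 with DESeq2 and 0.47 with its size factors in edgeR, below the fold threshold, which ended its call. Mdm2, at 0.10, was not called, and had -0.31 with the size factors.

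In ES cells against embryos 8 of 10 genes were called and all were higher in ES cells, where 64.0% of 13511 genes were called and the median of all genes was 0.49 (0.82 with the size factors). Trp53inp1 had a log2 of 3.62 (standard error 0.40), Bbc3 of 3.40 (standard error 1.14), Ccng1 of 3.12 (standard error 0.38) and Phlda3 of 3.01 (standard error 1.23), with edgeR adjusted p of 9.36e-07, 0.0175, 3.39e-06 and 0.0453. Trp53 (-0.36, edgeR adjusted p = 0.163) and Cdkn1a (0.57, edgeR adjusted p = 0.263) were not called. Cdkn1a was called as higher with DESeq2 (0.90, adjusted p = 0.0723), with its size factors in edgeR (0.90, adjusted p = 0.0784) and with stage weights in limma (0.61, adjusted p = 0.0523), and had -0.16 in males alone. Between males alone 5 genes were called, where 46.3% of 12764 genes were called. Phlda3 had 0.48 there (edgeR adjusted p = 0.786), Bbc3 2.45 (edgeR adjusted p = 0.200) and Aen, at 0.56 over both sexes, -0.01, so that these 3 calls were lost. Aen was also not called without either female ES line, at 0.48 and 0.41.

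Other genes of the p53 pathway came from lists set with earlier results of these data known. Of 40 other p53 targets tested between ES cells and fetal liver, 25 were higher in ES cells, 10 were lower and 5 were not called, with a median log2 of 0.89. Over all genes 35.5% were higher and 40.9% lower in this comparison, with a median of -0.07. Ak1, adenylate kinase, had 125.5 ± 23.7 CPM (SD, n = 4) in ES cells and 0.945 ± 0.485 CPM (SD, n = 24) in fetal liver. Eda2r, of the tumour necrosis factor receptor family, had 116 ± 60.1 and 1.11 ± 0.564 CPM. Lower in ES cells were Fas, the receptor of the extrinsic apoptosis pathway, at 0.721 ± 0.377 against 15.3 ± 2.77 CPM, and Dram1, a lysosomal regulator of autophagy, at 0.233 ± 0.281 against 10.7 ± 2.03 CPM. The higher level in ES cells that all 10 genes shared was thus not shared by every p53 target.

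Of 39 other targets tested between the livers, 16 were higher and 15 lower in adult liver, with a median log2 of -0.31, where 31.8% of all genes were higher and 35.3% lower, with a median of -0.05. Ephx1 and Dcxr, enzymes of xenobiotic and carbonyl metabolism in hepatocytes, were higher in adult liver by a log2 of 4.64 and 3.27, with edgeR adjusted p-values of 2.45e-51 and 5.99e-41. Gtse1 and Psrc1, which act on the mitotic cycle and its spindle, were lower with log2 ratios of -4.82 and -5.77, with edgeR adjusted p-values of 2.72e-40 and 5.23e-34. Psrc1 rested on 11 reads over the 24 adult livers.

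Of the regulators of p53, 10 of 16 tested were lower in adult than in fetal liver and 0 were higher, where 35.3% of all genes were lower and 31.8% higher. The checkpoint kinases Chek1 (30.8 ± 3.79 CPM in fetal and 1.09 ± 0.960 CPM in adult liver, SD, n = 24 each) and Chek2 (49.0 ± 5.33 and 4.11 ± 1.89 CPM), which phosphorylate p53 after DNA damage, led this list. In ES cells against fetal liver 11 of 19 regulators were higher and 4 were lower, where 35.5% of all genes were higher and 40.9% lower. Trp73, a p53 family member, had 499 reads in the 4 ES lines and 7 in the 24 fetal livers, and Cdkn2a, whose ARF product inhibits MDM2, had 379 and 4. Hipk2, a kinase of p53, was lower in ES cells at 3.42 ± 1.13 against 70.5 ± 22.6 CPM, and Ep300, an acetyltransferase that acts on p53, at 45.2 ± 6.97 against 89.3 ± 36.8 CPM.

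Bax and Bbc3 act with the other BCL2 proteins, of which 12 genes with the caspase core were tested. Between ES cells and fetal liver 4 were higher, 4 lower and 4 not called, beside 35.5% and 40.9% of all genes called as higher and lower. Members of both functions moved in both directions. The antiapoptotic genes Bcl2l1 (22.96 ± 3.07 against 152.8 ± 18.7 CPM) and Bcl2 (9 reads in all ES lines, 1719 in all fetal livers) were lower in ES cells. Bak1, the pore-forming relative of Bax, was higher by a log2 of 0.96 (edgeR adjusted p = 8.19e-12) and Bok by 1.69 (edgeR adjusted p = 6.75e-11). The other 4 called genes are named after their values were seen. The antiapoptotic Mcl1 (0.58, edgeR adjusted p = 2.51e-14) and the proapoptotic Bid (0.54, edgeR adjusted p = 1.39e-07) were higher in ES cells, and the proapoptotic Bcl2l11 (-1.60, edgeR adjusted p = 2.04e-11) and Bik (-0.56, edgeR adjusted p = 0.0408) were lower. Between the livers 4 were higher in adult liver, among them Bok and Bik, and 4 lower, among them Bcl2l1 and Bcl2l11, where 31.8% of all genes were higher and 35.3% lower.

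Paralogs of the 10 genes were tested in the same way. Of 10 paralogs tested in ES cells against fetal liver, 2 were higher and 7 lower, where 35.5% of all genes were higher and 40.9% lower. Ccng2, the relative of Ccng1, had 11.6 ± 4.80 CPM in ES lines, 39.2 ± 3.40 CPM in fetal livers and 28.0 ± 6.27 CPM in the adult. Cdkn1c, the relative of Cdkn1a that is imprinted, had 241.7 ± 33.9 CPM in fetal liver against 5.54 ± 1.34 in ES cells and 2.88 ± 1.94 in adult liver. Isg20, a relative of Aen, had 0.436 ± 0.207 CPM in ES cells and 55.0 ± 7.02 in fetal liver, while Isg20l2 was higher in ES cells by a log2 of 1.30 (edgeR adjusted p = 2.41e-23). Sesn3 was higher there by 0.82 (edgeR adjusted p = 3.02e-10). Trp53inp2 and Phlda1 were higher in adult than in fetal liver by 2.56 and 1.91, and Phlda2 was lower, with 7 reads over all adult livers and 988 over all fetal livers. In embryos Cdkn1b had no read in any of the 12 libraries, where Cdkn1a had 71 to 904 reads.

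Among the embryos, Ccng1 and Aen were the genes that led to the choice of the others. For Ccng1 the male embryos, in the order of their numbers 1 to 6, had 187, 84.8, 70.7, 129.9, 60.9 and 52.9 CPM. The female embryos 7 to 12 had 12.7, 28.6, 43.1, 33.6, 17.02 and 18.5 CPM. Every male lay above every female. This held for 0.132% of the 6807 genes whose mean in embryos reached 10 CPM (9 genes). The means were 97.8 ± 51.7 CPM in males and 25.6 ± 11.6 CPM in females (SD, n = 6 each), a ratio of 3.82, and 3.12 without male embryo 1. Ccng1 was the 1 member called between male and female embryos, where 0.264% of 9087 genes were called. The contrast between male and female embryos chose Ccng1 and Aen, so nothing is read from that count or from the male excess of either gene.

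Aen had 166, 90.3, 104.6, 101.3, 70.7 and 94.6 CPM in males 1 to 6 and 42.9, 46.2, 72.8, 58.3, 53.5 and 42.5 CPM in females 7 to 12. Male 5 lay below female 9, and the other 5 males lay above all females. Cdkn1a had 88.9, 58.1, 36.5, 102, 50.1 and 26.6 CPM in males and 21.9, 11.1, 51.2, 40.5, 13.2 and 11.8 CPM in females, where 3 males exceeded the highest female. Phlda3 was uneven in both sexes, with 90.0, 7.76, 1.59, 48.1, 2.15 and 18.3 CPM in males and 0, 0, 5.59, 8.74, 1.24 and 0.161 CPM in females. Its male mean of 28.0 ± 35.0 CPM (SD, n = 6) rested mainly on males 1 and 4, and fell to 15.6 CPM without male 1.

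The other 6 genes also overlapped between the sexes, and the number of males above the highest female ran from 1 for Sesn2 to 4 for Trp53 and Trp53inp1. The ratio of male to female means was 2.25 for Trp53inp1, 2.096 for Bbc3, 1.34 for Mdm2, 1.34 for Trp53, 1.30 for Bax and 1.26 for Sesn2. Mdm2 was 166 CPM in male 1 and 29.9 to 69.3 CPM in the other males, against 33.4 to 64.2 CPM in females, so that without male 1 the ratio was 0.991. Without male 1 the ratio was 1.79 for Trp53inp1, 1.83 for Bbc3, 1.21 for Trp53, 1.36 for Bax and 1.17 for Sesn2. Trp53 was 247 CPM in male 1, 122 to 180 CPM in the other males and 65.9 to 148 CPM in females.

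Male embryo 1 was the highest of the 12 for 6 of the 10 genes and among the 2 highest for 8. Over those 6807 genes it was the highest for 12.4% and among the 2 highest for 20.8%. Male 4 was the highest for 2 and among the 2 highest for 5 of the 10, beside 5.99% and 14% of all genes. No female was the highest for any of the 10, while each was the highest for 4.91% to 11% of all genes. Values in these embryos chose the genes, so nothing is read from these counts. Male 1 had 5332186 reads on genes, within the range of the others, but its share of reads outside annotated genes, 14.4%, was the highest among the embryos. Its pluripotency markers summed to 228 CPM, the lowest among the embryos, whose range was 228 to 945 CPM. Its oocyte markers (107.6 CPM of 61.4 to 156 CPM) and trophectoderm markers (314 CPM of 289 to 439 CPM) lay within the range of the others. The part of these differences in the values of male 1 was not tested, and values without male 1 are given beside several of the ratios, coefficients of variation and correlations.

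Within each sex, embryos differed by a median coefficient of variation of 0.380 over the 6807 genes. Phlda3 (1.63) and Bbc3 (1.06) were the most variable members, followed by Trp53inp1 (0.668), Ccng1 (0.607), Cdkn1a (0.565) and Mdm2 (0.558). Trp53 (0.268) and Aen (0.309) varied less than the median gene. Without male 1 the value of Mdm2 was 0.252, that of Aen 0.177 and that of Ccng1 0.458, beside 0.367 over all genes.

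The covariation with Ccng1 was measured as Pearson's r of log2 (CPM + 0.5) over the 12 embryos after the mean of each sex had been subtracted. The points share their libraries and amplification. The median r of the other 9 genes was 0.41, beside -0.03 over 6806 genes, and 4 of 9 exceeded 0.5, as did 5.45% of all genes. Those were Aen (r = 0.78, Spearman's rho = 0.70), Phlda3 (r = 0.73, rho = 0.63), Cdkn1a (r = 0.72, rho = 0.64) and Bbc3 (r = 0.59, rho = 0.51). Bbc3 had only 0 to 24 reads an embryo and no read in 4 embryos. Its mean of 1.46 CPM lay below the 10 CPM that the 6806 genes had to reach. Trp53inp1 (0.41) and Mdm2 (0.41) followed, and Sesn2 (0.19), Bax (0.09) and Trp53 (-0.05) lay within the middle 2 quartiles of all genes. The transcript of p53 itself had r of 0.62 within the males and -0.64 within the females.

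Without male embryo 1 the median r was 0.21, and the order of the genes parted into those that held and those that did not. Aen (0.67), Phlda3 (0.64), Cdkn1a (0.70) and Bbc3 (0.55) stayed above 0.5, as did 5.74% of all genes. Mdm2 went to -0.05, Trp53inp1 to 0.18, Sesn2 to 0.02 and Trp53 to -0.46. Without the 2 embryos farthest from the median of Ccng1 (male 1 and female 7) Aen had 0.60, Phlda3 0.58, Cdkn1a 0.85, Bbc3 0.48 and Mdm2 0.06. The scatter plots show Aen and Cdkn1a rising along Ccng1 in both sexes, and the high Mdm2 of male 1 standing alone.

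**Figure D3:**
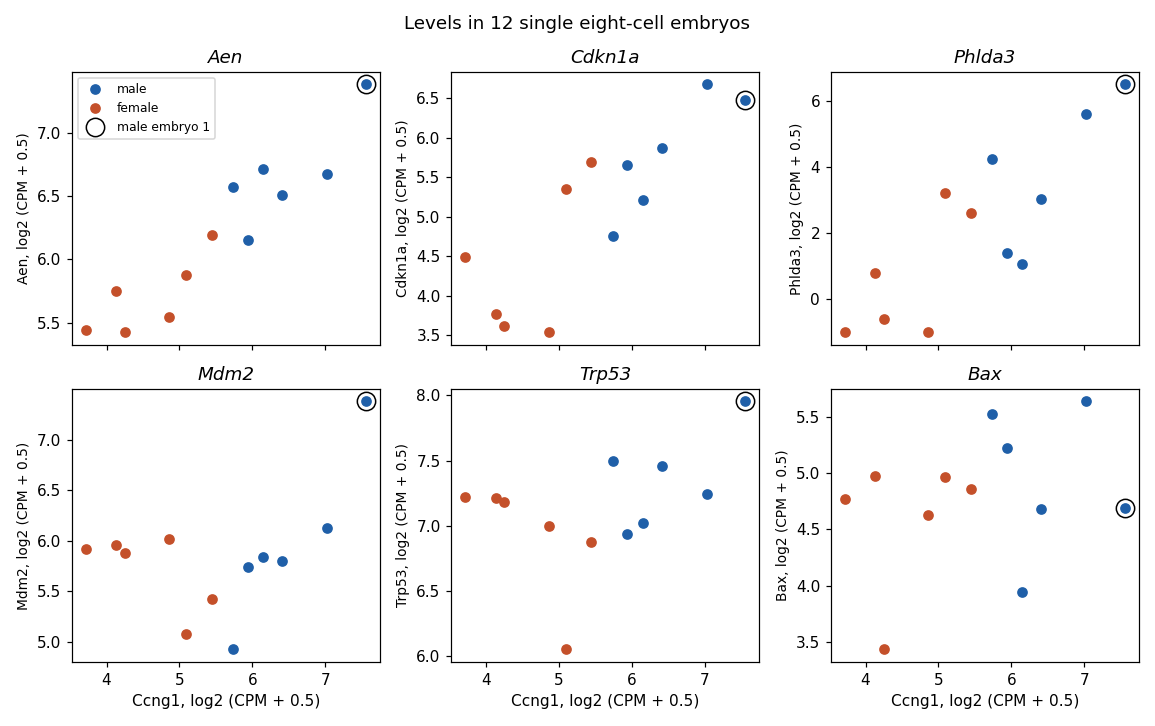
Level of 6 genes (vertical axes) against that of Ccng1 (horizontal axes) in the 12 embryos, all as log2 (CPM + 0.5), with males in blue, females in orange and a ring around male embryo 1. Aen, Cdkn1a and Phlda3 rise with Ccng1 (r of 0.78, 0.72 and 0.73 after centring on sex), whereas Mdm2 (0.41) depends on the ringed embryo and Bax (0.09) shows little slope.

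Within the 6 males r with Ccng1 was 0.80 for Aen, 0.88 for Cdkn1a, 0.76 for Phlda3 and 0.92 for Mdm2. These values include male 1, without which 5 males remain, too few for an r to be given. Within the 6 females it was 0.78, 0.60, 0.70 and -0.67. Aen, Cdkn1a and Phlda3 thus had the same sign in both sexes, as did Bbc3 (0.25 in males and 0.96 in females). Mdm2 had opposite signs, as did Trp53 (0.62 in males and -0.64 in females) and Trp53inp1 (0.82 and -0.25). Signs were also opposite for Sesn2 (0.45 in males and -0.06 in females) and Bax (-0.06 and 0.26). With 6 embryos such values scatter widely, since 18.1% of all genes in males and 18.2% in females exceeded 0.5.

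**Figure D4:**
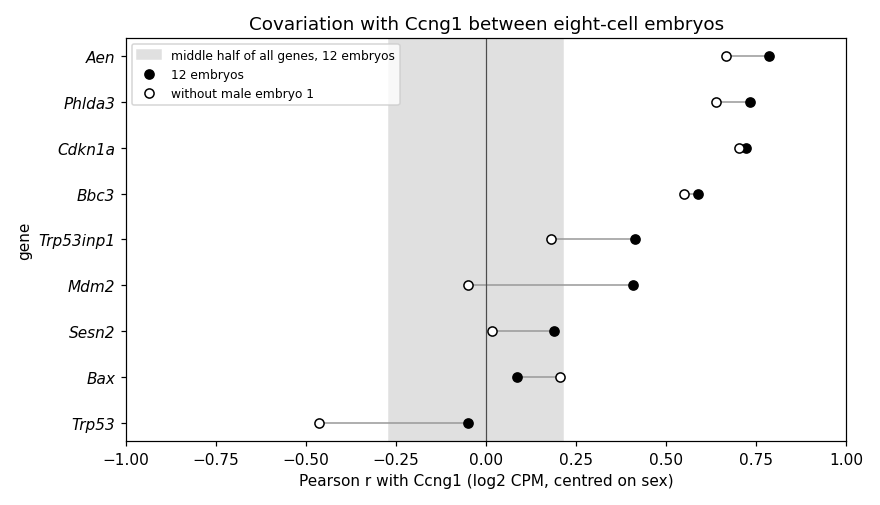
Pearson's r with Ccng1 (horizontal axis) for the other 9 genes (vertical axis), over 12 embryos (filled) and without male embryo 1 (open), and the middle 2 quartiles of 6806 genes over 12 embryos (grey, -0.27 to 0.21). Aen, Phlda3, Cdkn1a and Bbc3 stay right of the grey band in both cases, and Mdm2 enters it without male embryo 1.

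Among themselves the 10 genes formed 45 pairs, of which 35 had a positive r, with a median of 0.19. Without male 1 the median was 0.02 and 26 of the 45 were positive. Among Ccng1, Aen, Cdkn1a and Phlda3, grouped here by the r seen above, values ran from 0.58 for Aen with Cdkn1a to 0.78 for Aen with Ccng1. Without male 1 these ran from 0.55 for Aen with Cdkn1a to 0.70 for Ccng1 with Cdkn1a. Bbc3, also above 0.5 with Ccng1, had 0.50 with Aen, 0.49 with Cdkn1a and 0.13 with Phlda3. Without male 1 the values of Bbc3 were 0.45, 0.45 and 0.001. Mdm2 was instead closest to Trp53inp1 (0.73, and 0.62 without male 1) and Trp53 (0.61, and 0.39 without male 1), and Trp53 also to Sesn2 (0.59, and 0.53 without male 1).

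The 5 genes most like Ccng1 among the embryos, by the same r and among genes whose mean reached 10 CPM, were Lsm1 (0.93), which encodes a subunit of a ring complex in mRNA decay, Sdc4 (0.85), a cell surface proteoglycan, Hn1 (0.84), Zfp91 (0.81) and Ccndbp1 (0.80), a protein that binds cyclin D. Aen came behind these, and 0.147% of genes had an r at least as high as Aen. Without male 1 the r of Lsm1 was 0.90 and that of Sdc4 and Hn1 0.84 each. None of the 3 that have a RefSeq window (Sdc4, Zfp91 and Ccndbp1) held a match to the p53 element.

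In livers, whose values did not choose the genes, the same measure gave lower medians. Over the 24 fetal livers the median r of the other 9 genes with Ccng1 was -0.08, beside 0.02 over 9626 genes, and the highest was 0.20 for Sesn2. Over the 24 adult livers the median was 0.12, beside 0.04 over 8798 genes, with the highest values for Aen (0.46) and Phlda3 (0.38). Phlda3 rests on at most 8 reads a library there. The genes were chosen for moving with Ccng1 in embryos, where the median was 0.41, and 0.21 without male embryo 1. Nothing is therefore read from the higher median there, and the difference between stages was not tested.

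Male and female samples were compared within the other stages, which the choice of the genes did not use. In ES cells 1 of 10 genes was called, where 9.5% of 12678 genes were called. That gene was Bbc3, at 11.8 and 12.2 CPM in male lines and 19.4 and 16.7 CPM in female lines, which is a log2 difference of -0.58, male over female (standard error 0.15, edgeR adjusted p = 0.0989). The call was lost with DESeq2 (adjusted p = 0.221) and without an expression filter (edgeR adjusted p = 0.101). Its log2 was -0.46 without female line 3 and -0.69 without female line 4, in fits that leave 1 female line. Ccng1 had -0.06, with an interval from -0.26 to 0.15, and Aen had -0.03, from -0.22 to 0.15. Phlda3 had -0.40, and -0.81 in the fit without male line 2, which leaves 1 male line.

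In fetal liver 0 of 10 genes were called, where 4.64% of 12930 genes were called. At an unadjusted p under 0.05 there were 4 of the 10 and 5235 of all genes, and 3 of the 10 had an adjusted p under 0.1 with a fold below the threshold. Trp53 was 29.7 ± 2.73 CPM in males and 25.7 ± 2.18 CPM in females (SD, n = 12 each), 0.24 apart on the log2 scale, male over female (edgeR adjusted p = 0.00135). Bax was 16.97 ± 2.79 and 21.4 ± 2.12 CPM, a log2 of -0.30 (edgeR adjusted p = 0.00376), and Phlda3 2.33 ± 0.430 and 3.11 ± 0.957 CPM, a log2 of -0.37 (edgeR adjusted p = 0.0711). Reads outside annotated genes made up 39.9% to 49.0% of the males' libraries and 34.1% to 38.1% of the females', which did not overlap, and their part in these differences was not tested. Ccng1 had -0.10, with an interval from -0.20 to -0.01.

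In adult liver 0 of 8 genes tested were called, where 9.49% of 10372 genes were called, and Cdkn1a and Phlda3 were left out by the expression filter. Mdm2 was 61.2 ± 7.20 CPM in males and 51.6 ± 7.503 CPM in females (SD, n = 12 each), a log2 of 0.22 (edgeR adjusted p = 0.0478). Ccng1 had -0.14 (standard error 0.07, edgeR adjusted p = 0.149). At an unadjusted p under 0.05 there was 1 of the 8, Mdm2, and 3820 of all genes. Ccng1 was thus estimated below 0 at the 3 stages other than embryos. Its log2 of 1.94 in embryos comes from the contrast that chose it, so nothing is read from the difference to these stages, which was not tested. The change of the sex difference between the livers was called for 0 of 10 genes, where 13.7% of 13026 genes were called, though Bax (0.40) and Mdm2 (0.22) passed the p threshold alone, the 2 genes with an unadjusted p under 0.05 (4871 of all genes), with edgeR adjusted p of 0.0274 and 0.0490. DESeq2 called 0 of the genes tested in each of these 3 liver comparisons as well.

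**Figure D5:**
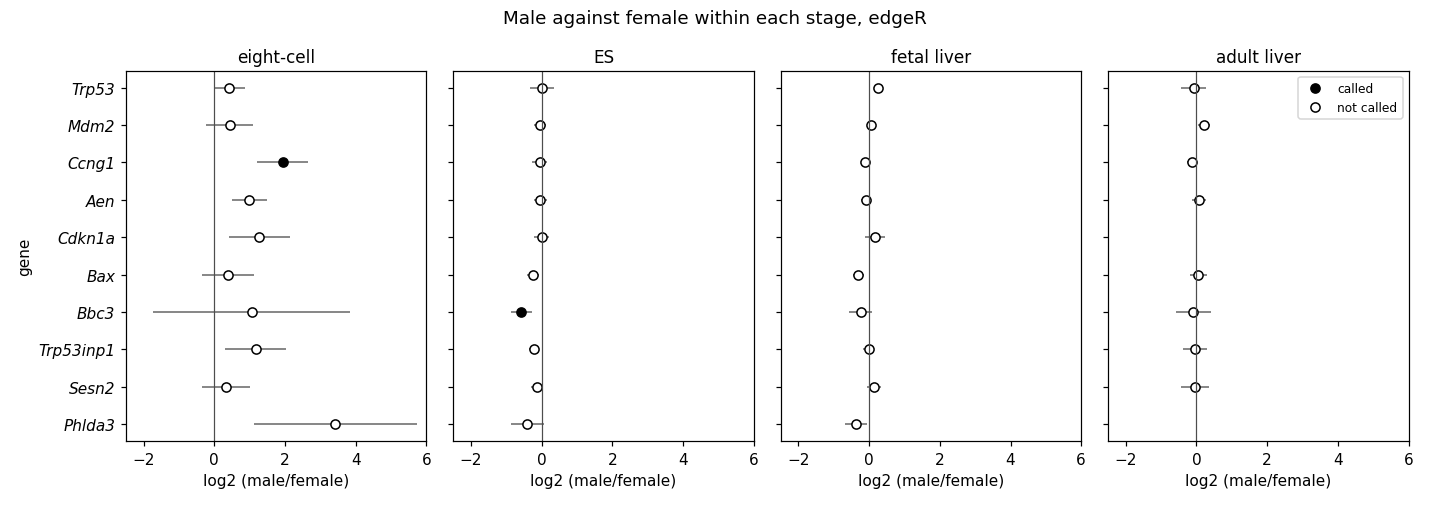
Log2 (male/female) of each gene (vertical axis) in the 4 stages (panels, horizontal axis), with a point at the edgeR estimate, a bar for its 95% interval and filled points for called genes. In the other stages the points lie between -0.58 and 0.24. In embryos all 10 lie above 0, up to 3.42 for Phlda3, though Mdm2 had -0.0168 without male embryo 1. Values in the embryos chose the genes, so nothing is read from their position there.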

How the data were processed

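The authors deposited raw read counts per gene for each library, whole numbers with no normalization: reads were aligned to mm10 with TopHat2 2.0.4, Bowtie2 2.1.0 and SAMtools 0.1.18, duplicates were removed with Picard and reads were assigned with HTSeq, whose strand setting is not given in the sources used here. The 5 rows that name no gene were left out of library sizes. Groups followed the labels of stage and gender.

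Counts were tested with edgeR 4.0.16 in R 4.3.3 (TMM, filterByExpr, robust quasi-likelihood fit), over all genes. Intervals are 95% normal intervals of the estimate. DESeq2 1.42.0, its size factors in edgeR, no filter, limma 3.58.1 (voom with stage weights), each sex alone, the deeper adult livers alone and fits without each ES line were alternatives. Fits and correlations without male embryo 1 were chosen after seeing the data. The fits were tested on simulated data. No 2 libraries agreed within sampling noise. Summaries used Python with numpy and pandas.

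The genes, lists and tests were chosen with earlier results of these data known. Named from each list were the 2 largest positive and negative log2 values among called genes in ES cells and in adult liver, each against fetal liver, the 5 genes with the highest r with Ccng1 in embryos, and paralogs.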

Additional observations from a re-analysis of the deposited data

Results flagged for a closer look

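In 20 groups of 6 embryos (10 genes in males and in females), 3 held an embryo whose gap to its nearest neighbour, as a share of the group's range, exceeded Dixon's 95% critical value of 0.625. The critical value would flag about 1 in 20 independent groups of normally distributed values. These groups share the same embryos, and the genes were chosen by their levels there, so the count is only a description. Male embryo 1 had 165.6 CPM of Mdm2, and the next male had 69.3 CPM. The same embryo had 166.1 CPM of Aen, and the next male had 104.6 CPM. Female embryo 12 had 10.3 CPM of Bax, and the next female had 24.2 CPM.

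The sex difference of 2 genes differed between the livers by the edgeR interaction test at an adjusted p under 0.1, with folds below the threshold. At an unadjusted p under 0.05 there were these 2 of the 10 and 4871 of the 13026 genes tested. The log2 (male/female) of Mdm2 was higher in adult than in fetal liver by 0.22 (adjusted p = 0.0490), and that of Bax by 0.40 (adjusted p = 0.0274).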

How the results depend on the processing

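Of 84 counts or medians recomputed under an alternative, 75 stayed within 1.5 times or 1 SD, and ES cells against either liver gave 10 of 10 genes throughout. In ES cells against embryos the count was 5 with male samples alone, where 46.3% of all genes were called. Between male and female ES lines it was 0 with DESeq2 and 0 without an expression filter, where 8.75% and 7.01% of all genes were called. Fits without each line leave 1 line in an arm, so no count is given for them. Between male and female embryos, the contrast that chose Ccng1 and Aen, it was 2 with DESeq2, where 0.704% of all genes were called. The median r with Ccng1 was 0.58 without centring on sex and 0.21 without male embryo 1. Leaving out each embryo in turn gave 0.21 to 0.55.

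Values whose sign changed were mostly small, and the cause was not tested. In adult against fetal liver Aen had -0.0591 with DESeq2, -0.0587 with its size factors, -0.0103 without a filter and -0.0885 in females, and Sesn2 had -0.0760, -0.0747 and -0.0236 under the first 3 settings, -0.0174 with limma, -0.0691 in males and -0.0115 with deeper adult livers. With male samples alone, ES cells against embryos gave -0.0149 for Aen and -0.156 for Cdkn1a, embryos against fetal liver gave 0.0781 for Mdm2 and 0.64 for Ccng1, and embryos against adult liver gave 0.24 for Ccng1. With females alone Phlda3 had -0.16 in embryos against fetal liver. Mdm2 in embryos against adult liver had -0.31 with DESeq2 or its size factors and -0.11 without male embryo 1, and -0.0168 between male and female embryos without it. With deeper adult livers, male against female gave -0.0278 for Bax, 0.0718 for Bbc3, 0.17 for Trp53inp1 and 0.10 for Sesn2. The interaction of Ccng1 was -0.00872 with DESeq2 and -0.00788 with its size factors. Without each ES line, male against female ranged from -0.26 to 0.24 for Trp53, -0.127 to 0.0452 for Mdm2, -0.205 to 0.0719 for Ccng1, -0.110 to 0.0411 for Aen and -0.0961 to 0.0793 for Cdkn1a. A fit that leaves 1 line in an arm assumes that it varies like the others.

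Liver numbers are shared between stages, but 0 of 24 same-numbered pairs correlated above 0.1 (median -0.006), so they mark no pairing. With the replicate block 5 of 10 genes were called between the livers, as without it. Depth limits Phlda3, Cdkn1a and Bbc3, which had libraries with no read.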
